A study of Mus musculus with 33 samples.

Results

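A set of 9 hepatic enzymes that break down amino acids, labelled periportal, was followed through the series: serine dehydratase (Sds), the histidine enzymes Hal, Uroc1 and Ftcd, the tyrosine enzymes Tat, Hpd, Hgd and Fah, and tryptophan dioxygenase (Tdo2). They were taken from the table by gene symbol and account for 9 of the 21671 genes in the table. All 9 passed the filter on low values in every comparison. Bulk liver RNA carries no record of position in the lobule, so the periportal label itself was not tested here.

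Hepatocytes next to the portal vein receive blood rich in oxygen and nutrients, and they carry out much of the liver's gluconeogenesis, urea synthesis and amino acid breakdown. Hepatocytes around the central vein, where Wnt/β-catenin signalling is active, make glutamine and metabolise drugs. Genes for amino acid breakdown respond to glucagon, glucocorticoids and diet, and several are regarded as markers of the differentiated hepatocyte.

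The series measured total RNA from 33 mouse livers and liver nodules, strain C57BL/6, to ask how MYC cooperates with β-catenin. In the short-term arm, mice aged 6 to 8 weeks were injected intravenously with AAV8-TBG-CRE, in which the hepatocyte promoter TBG drives Cre, and livers were taken after 4 days. These were wild type (WT, 5 livers), b-catEx3 (Ex3, 5 livers), in which Cre removes exon 3 of β-catenin, R26-lslMYC (MYC, 5 livers), in which Cre switches on a MYC transgene at Rosa26, and R26-lslMYC with b-catEx3 (MYC+Ex3, 5 livers). The WT livers received the same virus. In the tumour arm, primary nodules came from Alb-CreERT2/R26-lslMYC mice (MYC tumours, 3) and Alb-CreERT2/R26-lslMYC/b-catEx3 mice (MYC+Ex3 tumours, 3), where an albumin promoter drives a Cre that 4-hydroxytamoxifen (4-OHT) activates. Their comparison group was 7 livers labelled WT, taken 4 days after intraperitoneal 4-OHT, so nodule and normal liver differ in time after activation as well as in genotype. Ages of the tumour-arm mice, and whether nodules came from separate mice, are not given in the labels, and p-values therefore measure the spread between these samples.

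Depth, as reads assigned to genes, was 3.75 to 7.31 M in the short-term arm and 6.65 to 9.82 M in the tumour arm. Levels are given as RPKM, which divides a gene's reads by its length and by a library total, and the 2 arms stand on different scales, so levels are compared only within an arm. The highest RPKM of any gene was 220 to 396 in the short-term livers and 42.9 to 67.5 in the tumour arm, and Alb, the most abundant liver message as a rule, stood at 70.7% to 95.4% of that maximum. The highest values thus lie close together. Tat reached 86.4%, Hpd 77.3%, Tdo2 77.0%, Sds 66.9%, Uroc1 66.7% and Ftcd 54.3% of a library's maximum, and Hal, Fah and Hgd less. Changes of abundant genes, these enzymes among them, may be understated. Reads of such genes need not follow depth. Tdo2 had 1650 reads in the MYC+Ex3 liver of 3.75 M and 1579 in that of 7.31 M, at RPKM of 269 and 132. The part of depth in the differences below was not tested. In 10 of the 20 short-term libraries the keratins Krt5, Krt14 and Krt17 summed to an RPKM over 1 (3 WT, 3 Ex3, 1 MYC and 3 MYC+Ex3), a split the labels do not name. This split ran largely along depth. Keratin-bearing libraries had 3.75 to 5.10 M reads, and keratin-free ones 5.25 to 7.31 M except MYC replicate 3 at 4.39 M. The Wnt target Axin2 followed the Ex3 label: its mean RPKM was 18.4 in Ex3 against 3.32 in WT short-term livers, and 9.89 in MYC+Ex3 against 0.362 in MYC tumours.

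In livers not given an oncogene the 9 enzymes were abundant. Mean RPKM in WT short-term livers ran from 104 ± 8.44 (SD, n = 5) for Hgd to 220 ± 30.9 for Tdo2, with Hpd at 214 ± 20.7 and Tat at 191 ± 32.9. These 3 overlapped one another between livers, while the other 6 lay between 104 and 124 and overlapped among themselves. In 4-OHT livers Tat led with 39.8 ± 6.97 (SD, n = 7), ahead of Hpd at 38.0 ± 5.29, and Hgd was again last with 18.7 ± 2.53. In MYC+Ex3 tumours the order was different: Hpd was first with a mean of 37.1 and Sds last with 2.63.

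Sds, which converts serine to pyruvate and ammonia for gluconeogenesis, showed the widest difference of the 9. Its RPKM in the 7 4-OHT livers was 23.4 at the lowest, 28.3 at the median and 34.7 at the highest. In the 3 MYC tumours it was 27.4, 26.5 and 30.3, inside the range of normal liver. In the 3 MYC+Ex3 tumours it was 0.402, 6.04 and 1.45, values that rest on 17, 210 and 52 reads. Every MYC+Ex3 tumour lay below every other library of the arm, and the mean was 9.03% of that in 4-OHT livers. Of all genes, 17.8% had MYC+Ex3 tumours below every 4-OHT liver and 7.71% had them below every MYC tumour. Differences were tested with limma on log2(RPKM + 1), a scale that understates the change of low values, and genes were called at an adjusted p under 0.05 over all genes tested. Sds fell by 3.37 ± 0.332 (SE) on the log2 scale against 4-OHT livers (limma adjusted p = 1.82e-06) and by 3.33 ± 0.393 against MYC tumours (limma adjusted p = 0.000215). With a pseudocount of 0.1 in place of 1 the first change was -4.10. In bulk tissue, fewer cells that express a gene and less RNA per cell cannot be told apart.

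**Figure D1:**
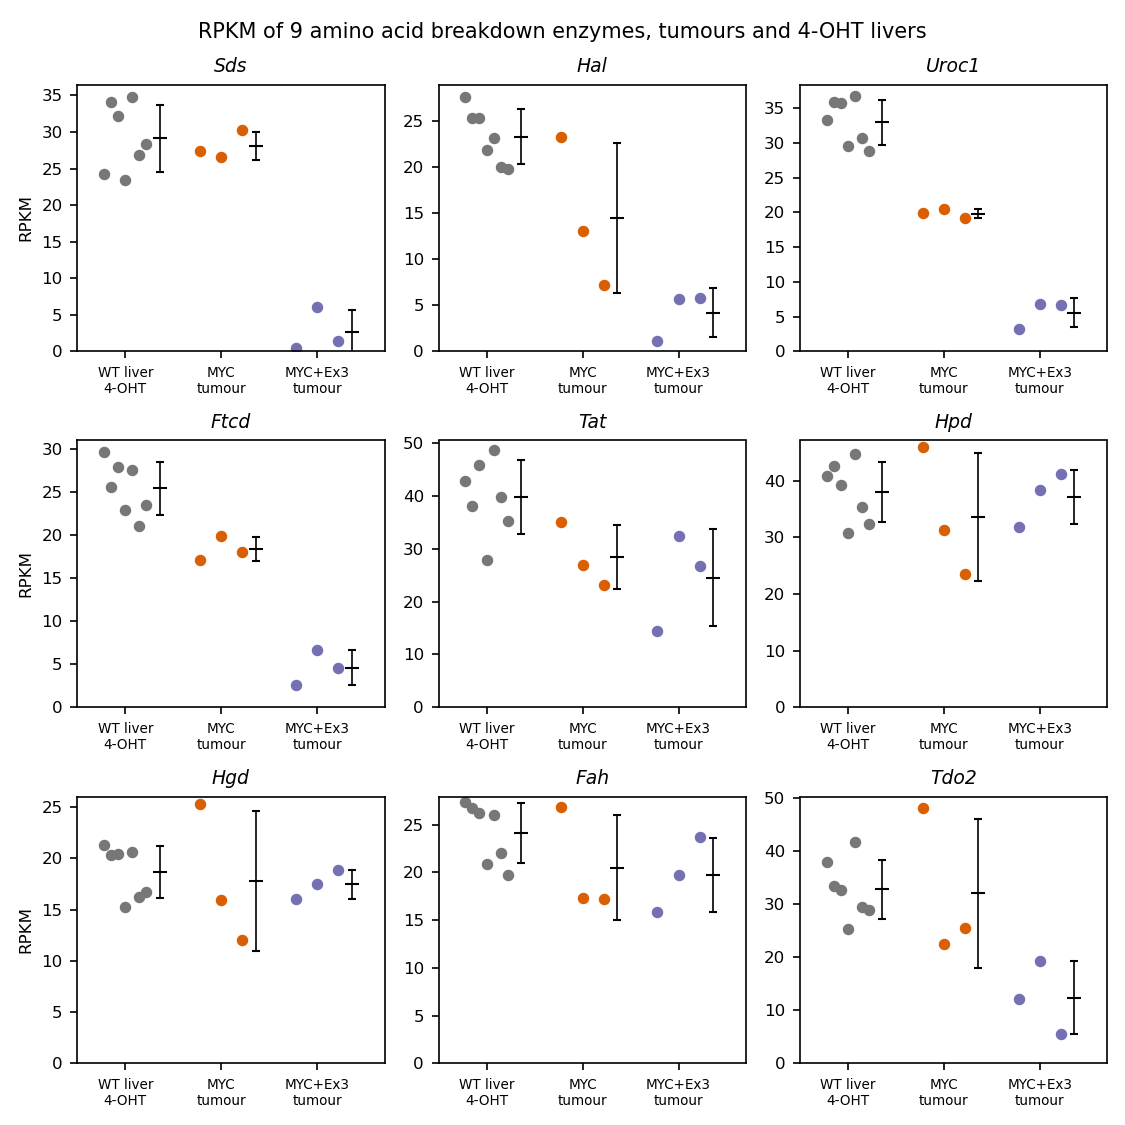
RPKM of each of the 9 enzymes in every tumour-arm library (points; 7 4-OHT livers, 3 MYC tumours, 3 MYC+Ex3 tumours), with the group mean and SD as the black bar to the right of the points; the lower SD bar of Sds in MYC+Ex3 tumours is cut at 0. Sds, Hal, Uroc1, Ftcd and Tdo2 sit lowest in all 3 MYC+Ex3 tumours, while Tat, Hpd, Hgd and Fah overlap between the groups.

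Histidine is degraded in 4 steps, of which Hal (histidine ammonia-lyase) is the first, Uroc1 (urocanate hydratase) the second and Ftcd (formimidoyltransferase cyclodeaminase) the last, passing a carbon unit to folate. The 250 bases upstream of the start of these genes are shown because the 3 fell together in MYC+Ex3 tumours, with those of Hpd, which was not called, for contrast. They are RefSeq sequences of build GRCm38.p6, and 8 of the 9 enzymes were matched in the table used, Sds being the exception. Capitals mark CTTTGA, the core of the TCF/LEF motif, in Hal (199 to 194 bases before the start) and, as its reverse complement, in Uroc1 (218 to 213), and TGACG, part of the cAMP response element, in Ftcd (136 to 132).

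Hal promoter, chr10:93488518-93488767, plus strand: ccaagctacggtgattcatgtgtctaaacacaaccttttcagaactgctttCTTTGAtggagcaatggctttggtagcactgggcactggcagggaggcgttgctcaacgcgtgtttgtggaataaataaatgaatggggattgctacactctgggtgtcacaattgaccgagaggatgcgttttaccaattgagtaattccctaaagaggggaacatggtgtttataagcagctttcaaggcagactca
Uroc1 promoter, chr6:90333039-90333288, plus strand: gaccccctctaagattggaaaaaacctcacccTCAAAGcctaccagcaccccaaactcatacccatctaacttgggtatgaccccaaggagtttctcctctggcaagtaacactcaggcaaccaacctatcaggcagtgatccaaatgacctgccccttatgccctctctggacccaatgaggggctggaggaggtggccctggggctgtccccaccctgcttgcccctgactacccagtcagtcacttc
Ftcd promoter, chr10:76575398-76575647, plus strand: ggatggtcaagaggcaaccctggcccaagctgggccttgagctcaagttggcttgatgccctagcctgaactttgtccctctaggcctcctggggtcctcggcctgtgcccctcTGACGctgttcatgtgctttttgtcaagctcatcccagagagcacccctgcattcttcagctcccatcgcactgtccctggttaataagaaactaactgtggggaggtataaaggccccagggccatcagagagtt
Hpd promoter, chr5:123182724-123182973, minus strand: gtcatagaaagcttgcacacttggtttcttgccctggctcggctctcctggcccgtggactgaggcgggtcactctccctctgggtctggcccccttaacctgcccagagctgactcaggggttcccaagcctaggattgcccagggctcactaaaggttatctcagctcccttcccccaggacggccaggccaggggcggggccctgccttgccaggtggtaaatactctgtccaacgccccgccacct

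On both strands, CTTTGA was found in 2 of the 8 promoters and in 14% of 27025 gene promoters of this length, and TGACG in 1 of 8 and in 17.9%. CACGTG (E-box, 6.05% of promoters), TGACGTCA (full cAMP response element, which contains TGACG, 1.62%), TGTTTAC (FOXA, 3.09%), the HNF1 motif (0.0629%), CAAAGTCCA (HNF4, 0.381%) and TTGCGCAA (C/EBP, 0.170%) had no match in the 8. These matches are descriptions of the letters in this window.

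Hal stood at 19.8, 23.1 and 27.6 (lowest, median and highest RPKM) in 4-OHT livers, at 23.2, 13.1 and 7.16 in the MYC tumours, and at 1.12, 5.66 and 5.79 in the MYC+Ex3 tumours. Uroc1 stood at 28.8, 33.2 and 36.7 in 4-OHT livers, at 19.9, 20.4 and 19.2 in MYC tumours, and at 3.15, 6.76 and 6.70 in MYC+Ex3 tumours. Ftcd stood at 21.1, 25.6 and 29.6 in 4-OHT livers, at 17.2, 19.9 and 18.0 in MYC tumours, and at 2.58, 6.70 and 4.57 in MYC+Ex3 tumours. For all 3 enzymes the MYC+Ex3 tumours were below both other groups without overlap, a pattern shown by 17.8% of all genes against 4-OHT livers and 7.71% against MYC tumours. MYC tumours were also below every 4-OHT liver for Uroc1 and Ftcd (8.89% of all genes), whereas 1 of the 3 MYC tumours lay within the normal range for Hal. Against 4-OHT livers the log2 changes in MYC+Ex3 tumours were -2.40 ± 0.340 for Hal, -2.43 ± 0.169 for Uroc1 and -2.30 ± 0.183 for Ftcd (limma adjusted p = 3.78e-05, 1.01e-07 and 3.24e-07). Against MYC tumours, Uroc1 fell by 1.73 ± 0.200 and Ftcd by 1.85 ± 0.216 (limma adjusted p = 0.000188 and 0.000201). Hal fell by 1.62 ± 0.402 (limma adjusted p = 0.0365), a call that was lost in 3 of 6 alternative analyses and in 8 of 13 that left out 1 library. These 8 were 5 of the 4-OHT livers and MYC tumour replicate 2, with the change at -1.62, MYC tumour replicate 1 (-1.23, limma adjusted p = 0.0876) and MYC+Ex3 tumour replicate 1 (-1.06, limma adjusted p = 0.117).

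Tyrosine is degraded by Tat (tyrosine aminotransferase), Hpd (4-hydroxyphenylpyruvate dioxygenase), Hgd (homogentisate dioxygenase) and Fah (fumarylacetoacetate hydrolase), in that order, and the last 3 were not called lower in either comparison of MYC+Ex3 tumours. Hpd stood at 30.7, 39.3 and 44.6 (lowest, median and highest RPKM) in 4-OHT livers, at 45.9, 31.4 and 23.5 in MYC tumours, and at 31.9, 38.4 and 41.1 in MYC+Ex3 tumours. All 3 MYC+Ex3 tumours lay within the normal range. The log2 change of Hpd against 4-OHT livers was -0.03 with a 95% interval of -0.41 to 0.36, and that of Hgd was -0.08 (-0.47 to 0.30). For Fah it was -0.28 (-0.64 to 0.07). Against MYC tumours the values were 0.18 (-0.27 to 0.64), 0.04 (-0.42 to 0.49) and -0.04 (-0.46 to 0.38). The median of all genes tested was 0.23 above 0 in the comparison with 4-OHT livers, so these intervals depend on scaling. When each library was rescaled by its median ratio, Hpd was at -0.25, Hgd at -0.30 and Fah at -0.50, and Fah was called (limma adjusted p = 0.00769). The authors' deposited table gives log2 fold changes of -0.25 for Hpd, -0.31 for Hgd and -0.51 for Fah, the last 2 with adjusted p-values of 0.00243 and 3.43e-05.

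Tat, the first step, was intermediate. Its RPKM was 27.9, 39.8 and 48.8 (lowest, median and highest) in 4-OHT livers, 35.0, 27.0 and 23.2 in MYC tumours, and 14.4, 32.5 and 26.8 in MYC+Ex3 tumours. The groups overlapped, with MYC+Ex3 tumour replicate 1 the lowest of the 13 libraries. Tat fell by 0.73 ± 0.222 against 4-OHT livers (limma adjusted p = 0.0111), and without that tumour the change was -0.40 and not called (limma adjusted p = 0.105). Between the tumour kinds it was -0.26 ± 0.263 (limma adjusted p = 0.680).

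Tdo2 opens the tryptophan ring as the first step of the kynurenine pathway. It stood at 25.4, 32.7 and 41.8 (lowest, median and highest RPKM) in 4-OHT livers, at 48.2, 22.5 and 25.5 in MYC tumours, and at 12.1, 19.4 and 5.59 in MYC+Ex3 tumours. The MYC+Ex3 tumours lay below both other groups, as for 17.8% of all genes against 4-OHT livers and 7.71% against MYC tumours. The MYC tumours spread on either side of the normal range. Tdo2 fell by 1.47 ± 0.291 against 4-OHT livers (limma adjusted p = 0.000595) and by 1.38 ± 0.345 against MYC tumours (limma adjusted p = 0.0388). The second call was lost in 3 of 6 alternative analyses and in 7 of 13 that left out 1 library. These 7 were 4 of the 4-OHT livers, MYC tumour replicate 1 (-1.05, limma adjusted p = 0.0894), MYC+Ex3 tumour replicate 1 (-1.43, limma adjusted p = 0.0914) and MYC+Ex3 tumour replicate 3 (-0.94, limma adjusted p = 0.157). Between the tumour kinds the authors' deposited table gives -1.03 for Tdo2 and -1.23 for Hal, with adjusted p-values of 0.112 and 0.0619. For Sds, Uroc1 and Ftcd it gives -1.90, -1.68 and -1.74, with adjusted p-values of 0.000943, 2.14e-07 and 2.3e-06.

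In all, 6 of the 9 enzymes were lower in MYC+Ex3 tumours than in 4-OHT livers, where 18.4% of all genes tested were called lower, and 5 of 9 were lower than in MYC tumours, where 2.10% were. The second count was 3 of 9 (Sds, Uroc1 and Ftcd) with a sex covariate, beside 1.57% of all genes, and with only the 2 tumour kinds in the fit, beside 0.253%. Their median log2 changes were -1.47, beside 0.23 over all genes tested, and -1.38, beside 0.04. After rescaling, 7 of 9 were lower than in 4-OHT livers, beside 27.1% of all genes. In MYC tumours Uroc1 alone was called against 4-OHT livers (-0.70 ± 0.169, limma adjusted p = 0.00364), 1 of 9 where 13.7% of all genes were called lower. After rescaling 5 of 9 were called lower there (Hal, Uroc1, Ftcd, Tat and Fah), beside 23.3% of all genes, and 4 of 9 with only the 2 groups in the fit, beside 13.4%. Leaving out MYC tumour replicate 1, the highest of all 13 libraries in RPKM for Hpd, Hgd and Tdo2, gave 6 of 9, beside 15.8% of all genes. These comparisons share the 4-OHT livers. MYC tumour replicate 1 had 6.67 M reads in genes, against 9.56 and 9.82 M in replicates 2 and 3. In reads it was not the highest: Hpd had 1494 against 1660 in replicate 2, and Hgd 1569 against 1609. Tdo2 had 1881 reads there and 1941 in 4-OHT liver replicate 1. The part of depth was not tested.

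**Figure D2:**
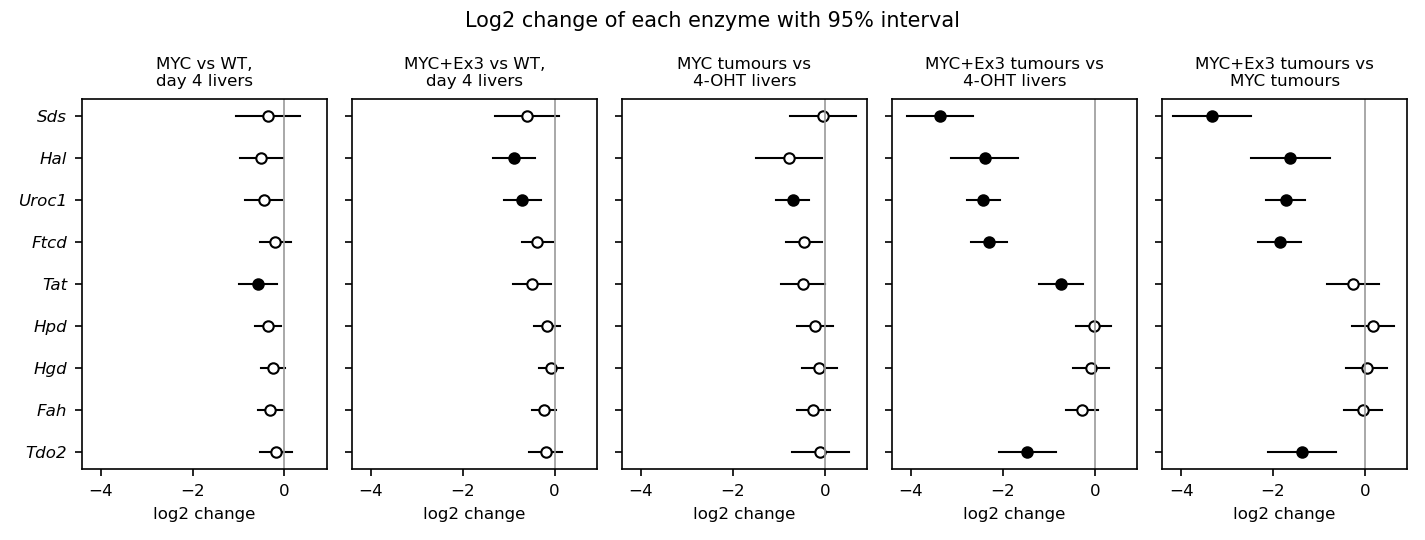
Log2 change of RPKM + 1 of each enzyme in 5 comparisons (points) with its 95% interval (lines); filled points were called at an adjusted p under 0.05, open points were not. Sds has the lowest value in both comparisons of MYC+Ex3 tumours, -3.37 and -3.33, while the intervals of Hpd, Hgd and Fah include 0 there. Against 4-OHT livers the median over all genes tested was 0.23, and Fah was called lower after rescaling (-0.50).

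The unequal fall shows in ratios within a library, which do not depend on library scaling. Uroc1 stood at 0.814 to 0.963 of the Hpd level in the 7 4-OHT livers, at 0.433 to 0.816 in the 3 MYC tumours and at 0.0989 to 0.176 in the 3 MYC+Ex3 tumours. Hgd stood at 0.456 to 0.552 of Hpd in all 13 libraries, with no separation of the groups. A ratio shows unequal change and not which of the 2 genes changed. Hpd stood at 51.9% to 76.7% of a library's maximum in this arm, so its own changes may be understated in these ratios.

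At 4 days the log2 changes of the 9 against WT livers ran from -0.88 (Hal, MYC+Ex3) to 0.20 (Hgd, Ex3). Ex3 alone gave 0 of 9 calls, with log2 changes from -0.28 (Ftcd) to 0.20 (Hgd), while 0.132% of all genes were called. MYC alone gave log2 changes below 0 for all 9 and 1 call, where 5.36% of all genes were called lower. This was Tat, at 181, 246, 158, 181 and 190 RPKM in WT livers and 118, 136, 152, 79.9 and 168 in MYC livers. MYC livers lay below WT livers except for 1 that exceeded the lowest WT liver. Tat fell by 0.57 ± 0.196 (limma adjusted p = 0.0418). Within the keratin-free libraries its change was -0.25 and not called (limma adjusted p = 0.304), and too few MYC livers carried keratin for a value in the others. It was not called without MYC replicate 4 (-0.41, limma adjusted p = 0.136), nor in 7 other analyses that left out 1 library. After rescaling 4 of 9 were called (Hal, Uroc1, Tat and Hpd), beside 9.51% of all genes. With a sex covariate, only the 2 groups in the fit, or keratin-free libraries, 0 of 9 were called, beside 5.22%, 2.73% and 2.27% of all genes. With the keratin split as a batch term Tat was not called (-0.50, limma adjusted p = 0.0736) and Uroc1 was (-0.54, limma adjusted p = 0.0448), 1 of 9 beside 8.40%.

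With MYC and Ex3 together, all 9 values were again below 0 and 2 were called against WT, where 6.18% of all genes were called lower. Hal was 127, 131, 122, 116 and 126 RPKM in WT livers and 66.0, 49.0, 43.7, 89.7 and 107 in MYC+Ex3 livers. Uroc1 was 117, 148, 130, 105 and 120 in WT livers and 80.7, 69.4, 51.6, 90.6 and 92.1 in MYC+Ex3 livers. Neither gene overlapped between the groups, a pattern seen for 3.70% of all genes. Hal fell by 0.88 ± 0.221 and Uroc1 by 0.70 ± 0.193 (limma adjusted p = 0.00612 and 0.0112). Within keratin-free libraries the changes were -1.12 and -0.72 (limma adjusted p = 0.00438 and 0.0117). Within keratin-bearing libraries they were -0.72 and -0.70, neither called (limma adjusted p = 0.113 and 0.0542). After rescaling, 4 of 9 were called (with Ftcd and Tat added), beside 9.51% of all genes, and with a sex covariate 3 of 9 (with Ftcd added, -0.50, limma adjusted p = 0.0181), beside 4.48%. Males were 4 of the 5 MYC+Ex3 and 2 of the 5 WT livers. In the keratin-free libraries Ftcd (-0.85) and Tat (-0.78) were called as well, 4 of 9 beside 8.44% of all genes, and in the keratin-bearing ones 0 of 9 beside 3.53%. The keratin-free MYC+Ex3 livers had 6.57 and 7.31 M reads and the keratin-free WT livers 5.38 and 6.06 M, and the part of depth was not tested.

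Sds varied widely between short-term livers: it was 88.4, 149, 122, 101 and 75.9 RPKM in WT, 49.7, 107, 123, 47.7 and 114 in MYC, and 51.0, 45.7, 39.9, 144 and 109 in MYC+Ex3 livers. The groups overlapped throughout, and the change in MYC+Ex3 livers was -0.61 ± 0.334 (limma adjusted p = 0.198). Within the keratin-free MYC+Ex3 and WT livers it was -1.09 (limma adjusted p = 0.0533), and within the keratin-bearing ones -0.28 (limma adjusted p = 0.701).

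**Figure D3:**
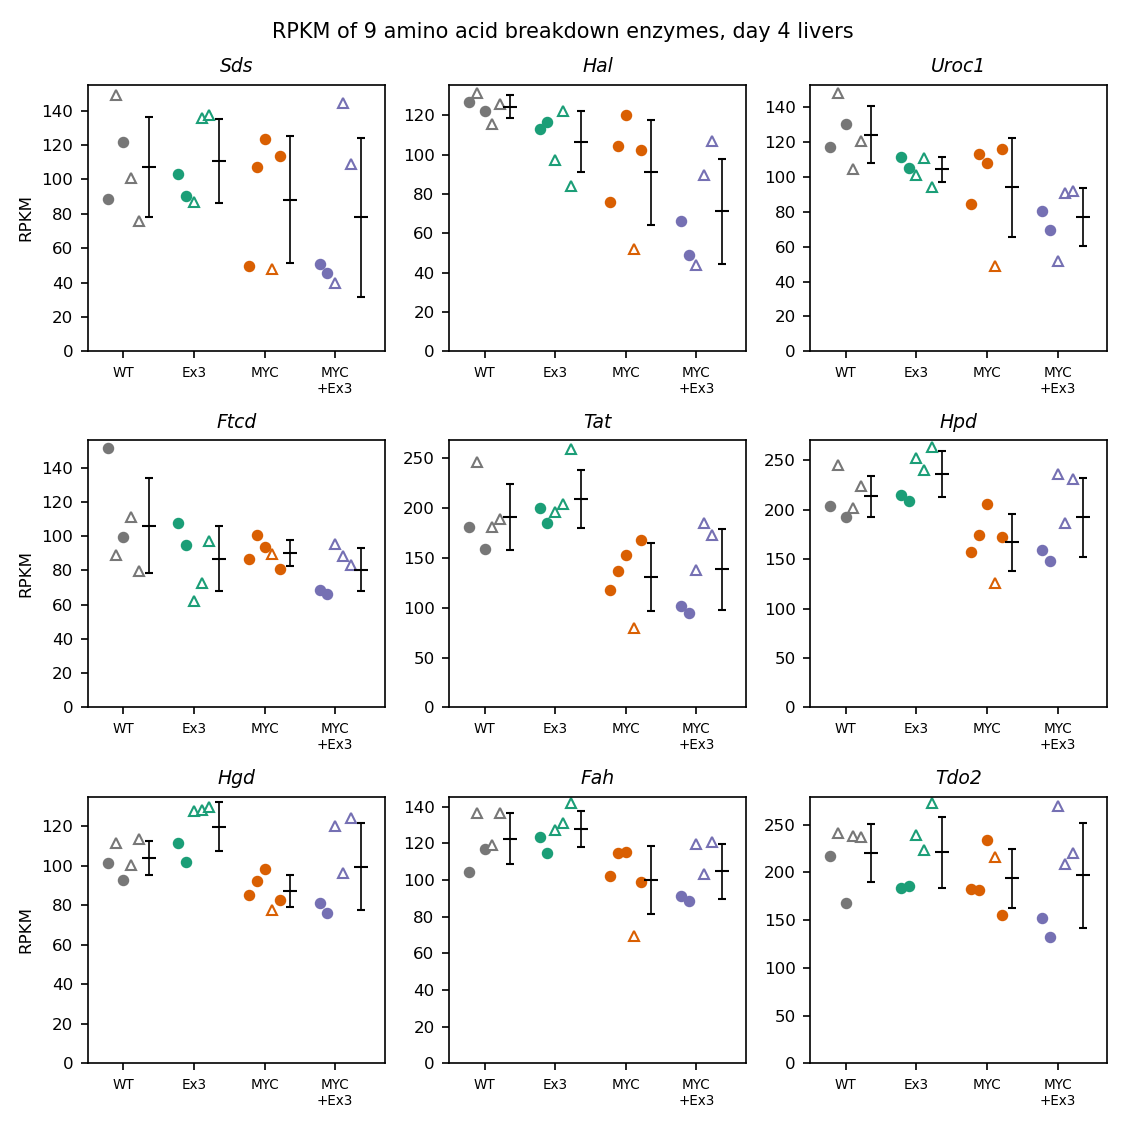
RPKM of each of the 9 enzymes in the 20 short-term livers, 5 per genotype (filled circles, keratin-free libraries; open triangles, keratin-bearing libraries), with the group mean and SD as the black bar to the right of the points. Hal and Uroc1 in MYC+Ex3 livers lie below all WT livers, while Sds overlaps in all 4 genotypes.

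Adding MYC to Ex3 lowered 2 of 9, Hal (-0.65 ± 0.221, limma adjusted p = 0.0420) and Tat (-0.63 ± 0.196, limma adjusted p = 0.0268), where 4.70% of all genes were called lower. The call of Hal was lost in 3 of 9 alternative analyses and in 8 of 20 that left out 1 library, and that of Tat in 1 of 9 and 3 of 20. In keratin-free libraries 6 of 9 were called lower (Hal, Uroc1, Tat, Hpd, Hgd and Fah), beside 4.92% of all genes, and in keratin-bearing libraries 0 of 9, beside 1.99%. The keratin-free MYC+Ex3 livers had 6.57 and 7.31 M reads and the keratin-free Ex3 livers 5.38 and 6.05 M. Between them Hgd changed by -0.44 on the log2 scale of RPKM, with 1383 and 1441 reads against 1560 and 1599. The part of depth was not tested. Rescaling added Uroc1 (-0.53, limma adjusted p = 0.0460), 3 of 9 beside 6.95%. With only the 2 groups in the fit Hal was not called (limma adjusted p = 0.0554) and Uroc1 was (-0.46, limma adjusted p = 0.0346), 2 of 9 beside 7.69%. Adding Ex3 to MYC gave 0 of 9 calls, where 0.190% of all genes were called. Keratin-free libraries also gave 0 of 9, with 5 genes called higher and 1 lower of 13346. There the changes ran from -0.93 (Sds) to -0.19 (Hgd), so every enzyme was below 0. The keratin-free MYC livers had 4.39 to 6.69 M reads, and the part of depth was not tested. The interaction of MYC and Ex3 at day 4 gave 0 of 9, with values from -0.31 (Sds) to 0.10 (Ftcd). Over all genes limma called 0 at an adjusted p under 0.05, or 0.00%, and 132 had an unadjusted p under 0.05.

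The effect of Ex3 on a MYC background was next compared between tumours and day 4 livers in 1 fit of the 16 libraries with MYC. The difference was called for Ftcd (-1.68 ± 0.271, limma adjusted p = 0.0130), 1 of 9 where 0.0222% of all genes were called lower. The Sds difference was -3.07 with a 95% interval of -4.57 to -1.58, and that of Uroc1 -1.48 (-2.30 to -0.65), neither called (limma adjusted p = 0.233 and 0.415). Without MYC+Ex3 tumour replicate 3 the Ftcd difference was -1.71 and not called (limma adjusted p = 0.0779). Tumours and day 4 livers differ in Cre driver, duration and library scaling, which cannot be told apart from stage.

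Lists of further genes in the same pathways, chosen with earlier results of these data known, were then read for MYC+Ex3 tumours against 4-OHT livers, and they include the enzymes above. In this comparison 18.4% of all genes tested were called lower. All 4 histidine genes were called lower, including Amdhd1, which acts between Uroc1 and Ftcd (-1.26 ± 0.182). Of 7 tryptophan genes 6 were called lower, among them Kynu (-2.42), the kynureninase, and Afmid (-1.43) and Kmo (-1.31), which act before it. Of 8 phenylalanine and tyrosine genes 1 was called lower, and that was Tat. Of 10 tested for serine, glycine, threonine and sulfur amino acids, 5 were called lower, with Agxt, the peroxisomal alanine-glyoxylate aminotransferase, at -3.15 and Gldc, of the glycine cleavage system, at -1.05. Of 17 for proline, alanine, aspartate, lysine and branched-chain amino acids, 4 were called lower, led by Aass (-1.79), which starts lysine breakdown. The last count and that for phenylalanine and tyrosine lie near the share over all genes. The list medians were -2.35 for histidine, -1.31 for tryptophan, -0.44 for serine and its group, -0.12 for phenylalanine and tyrosine and -0.05 for the rest, beside 0.23 over all genes.

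**Figure D4:**
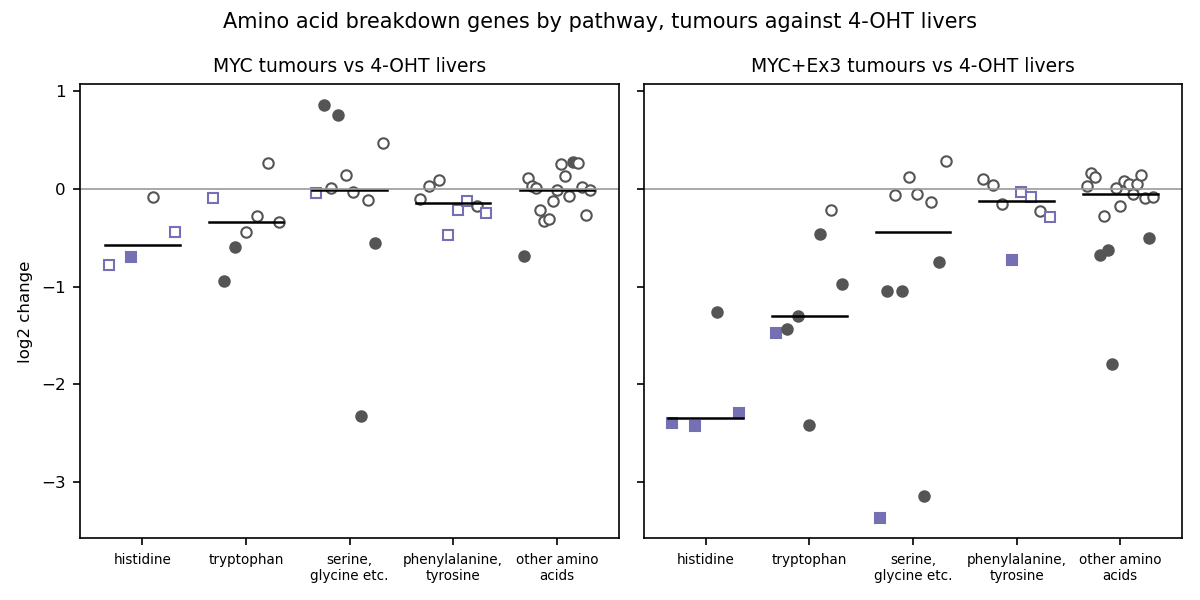
Log2 change of each amino acid breakdown gene tested, by pathway list, in MYC and MYC+Ex3 tumours against 4-OHT livers (squares, the 9 enzymes; circles, other listed genes; filled, called at an adjusted p under 0.05; black line, list median). The histidine and tryptophan lists have medians of -2.35 and -1.31 in MYC+Ex3 tumours, and the phenylalanine and tyrosine list -0.12.

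Between the tumour kinds, where 2.10% of all genes were called lower, MYC+Ex3 was lower than MYC for 4 of 4 histidine genes, 2 of 7 tryptophan genes (Tdo2 and Kynu), 3 of 10 of the serine group (Sds, Sdsl and Gldc), 1 of 17 of the last list (Aass) and 0 of 8 tyrosine genes. Sdsl, a homologue of Sds, and Gldc were higher in MYC tumours than in 4-OHT livers (0.86 ± 0.250 and 0.76 ± 0.237, where 36.2% of all genes were called higher) and lower in MYC+Ex3 tumours (-1.04 and -1.05). Agxt was lower in both tumour kinds, by 2.33 in MYC tumours on the log2 scale. At day 4, MYC+Ex3 livers had 3 of 4 histidine genes called below WT, beside 6.18% of all genes, with Amdhd1 at -1.07 ± 0.188, and Kynu at -1.10 ± 0.167.

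Reference genes of the lobule are read against the shares over all genes, 13.7% lower in MYC tumours than in 4-OHT livers, and 18.4% lower and 42.3% higher in MYC+Ex3 tumours. Of 9 pericentral and Wnt genes, 9 were lower in MYC tumours than in 4-OHT livers, and in MYC+Ex3 tumours 4 were higher (Axin2, Lgr5, Rhbg and Tbx3) and 0 lower. That count of 4 higher lies near the share over all genes. Between the tumour kinds 7 of the 9 were called higher in MYC+Ex3, where 240 of 11854 genes tested were. Of 6 other periportal genes, 3 were lower in MYC+Ex3 tumours, namely Cyp2f2 (-4.18), the gluconeogenic Pck1 (-1.72) and the glutaminase Gls2 (-1.51), and 1 in MYC tumours (Cyp2f2, -2.48). Among 7 regulators of these enzymes, MYC+Ex3 tumours had lower Cebpa (-0.59) and Nr3c1 (-0.30), the glucocorticoid receptor, and higher Ppargc1a (0.92). None of the 7 was called between the tumour kinds.

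The genes most like these enzymes in level were named by Pearson correlation of log2(RPKM + 1), a description over libraries that share groups and depth. Across the 13 tumour-arm libraries Sds was most like Aass (r = 0.958), Sqrdl (0.954) and Kynu (0.939) among 5234 genes, and across the 20 short-term livers most like Got1 (0.891), Ass1 (0.873) and Slc43a3 (0.852) among 9091. The mean of the 9 enzymes was most like Serpina1c (0.983), Azgp1 (0.977) and Otc (0.975) in the tumour arm, and like Aldh1l1 (0.986), Fggy (0.950) and Proz (0.940) in the short-term livers. Among the 9, Uroc1 and Ftcd had r = 0.987 in the tumour arm, Hpd and Hgd 0.946, and Sds and Hpd 0.022. In the short-term livers Uroc1 and Ftcd had r = 0.214, Hal and Uroc1 0.930, and Hpd and Hgd 0.952.

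Markers of other cells moved with the tumours too, and their counts are read against the shares over all genes tested. Against 4-OHT livers 13.7% were called lower and 36.2% higher in MYC tumours. In MYC+Ex3 tumours 18.4% were lower and 42.3% higher. Between the tumour kinds 2.10% were lower in MYC+Ex3. The 9 hepatocyte markers in the table summed to an RPKM of 316 to 432 in 4-OHT livers, 290 to 462 in MYC tumours and 286 to 355 in MYC+Ex3 tumours, with 0 and 3 of 9 called lower against 4-OHT livers and 0 of 9 between tumour kinds. Of 9 macrophage markers 8 were lower in each tumour kind than in 4-OHT livers (summed RPKM 142 to 197 in livers, 60.0 to 148 and 72.5 to 95.6 in the tumours), as were 6 of 8 endothelial markers (53.9 to 90.8, 26.8 to 48.2 and 30.1 to 35.2). Of 8 stellate cell and fibroblast markers, 3 were lower and 3 higher in MYC tumours, and 5 lower and 1 higher in MYC+Ex3 tumours (38.1 to 47.8 in livers, 25.9 to 47.7 and 23.5 to 29.7 in the tumours). Of the 3 cholangiocyte markers tested 2 were lower in MYC+Ex3 tumours than in 4-OHT livers, as were both lymphocyte markers tested, and none of these was called in MYC tumours. Between the tumour kinds 0 of 9 macrophage, 1 of 8 endothelial, 1 of 8 stellate, 1 of 3 cholangiocyte, 0 of 2 lymphocyte and 0 of 3 erythroid markers were called, all lower in MYC+Ex3. All 3 erythroid markers tested were higher in MYC+Ex3 tumours than in 4-OHT livers (46.1 to 54.5 against 12.7 to 29.8). The part of these cells in the enzyme differences was not tested.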

How the data were processed

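Total RNA was sequenced from strand-specific TruSeq libraries on an Illumina NovaSeq or 2000, per the labels' protocols. Tools named are TopHat2 2.0.8, TopHat, SAMtools, featureCounts 1.4.5-p1 and DESeq2, with build mm9, per the submitters' processing notes. The deposited table gives RPKM per library, computed by the authors. It also holds the authors' log2 fold changes, and the authors' adjusted p-values beside them, which are quoted only where named. Columns of samples outside the series numbered 0.

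Within a gene, deposited RPKM values were whole multiples of 1 read, which gave the reads quoted. The members and lists were chosen with earlier results of these data known. The test was limma 3.58.1 in R 4.3.3 on log2(RPKM + 1), empirical Bayes with trend, two-sided, with Benjamini-Hochberg adjustment over all genes reaching an RPKM of 1 in at least 3 libraries of the fit, called under 0.05. The 20 short-term livers were fitted together, as were the 13 tumour-arm libraries. All 9 enzymes are named in each comparison, and from each list at most 4 further called genes, by size of change. Alternatives were a pseudocount of 0.1, no filter, an RPKM filter of 5, median-ratio rescaling, only the groups compared, a sex covariate (Xist and Ddx3y), the keratin split (Krt5, Krt14 and Krt17 RPKM summing over 1) as a batch term or by analysing each of its sides alone, the 4-OHT livers with S14 or S15 in their names alone, and each library left out. The tests were checked on simulated data in which 200 genes changed by 1 on the log2 scale. Of these, 79% were called for MYC against WT livers and 51.5% for MYC+Ex3 against MYC tumours. A change of that size can therefore go uncalled.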

Additional observations from a re-analysis of the deposited data

Results flagged for a closer look

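Among the 45 groups of 4 to 10 libraries examined, 1 held a library apart from the rest: Tat in Ex3 liver replicate 5 had an RPKM of 259, while the other 4 Ex3 livers had 200, 185, 196 and 205. Chance alone sets about 1 in 20 such groups apart. In reads, Tat in replicate 5 was not apart: it had 2602, beside 2564 in replicate 1 and 2666 in replicate 2. Replicate 5 had the lowest depth of the Ex3 livers, 4.22 M reads in genes, and the part of depth was not tested. Tat gave no call in Ex3 livers.

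The effect of Ex3 on a MYC background differed between tumours and day 4 livers for Ftcd, by -1.68 on the log2 scale (limma adjusted p = 0.0130). Ftcd was -1.85 in tumours and -0.18 in day 4 livers.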

How the results depend on the processing

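No paired analysis was possible because the labels give no replicate numbers and those used follow accession order. Over all enzymes and comparisons, leaving single libraries aside, 580 results kept their direction and side of the threshold, 17 lost a call, 23 gained one and 10 changed sign. With 1 library left out, 1292 were kept, 36 lost, 24 gained and 43 changed sign. Under every alternative run, Sds, Uroc1 and Ftcd stayed lower in MYC+Ex3 tumours against both groups (Sds -4.10 to -2.81).

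Counts of enzymes called changed as follows (the count first given in brackets); a batch term for the keratin split left each day 4 count as it was. MYC against WT livers (1) gave 0 with no filter, the sex covariate, only the groups compared or keratin-free libraries, and 4 rescaled. With no filter 583 of 20263 genes were called lower in this comparison. MYC+Ex3 against WT livers (2) gave 4 rescaled, 3 with the sex covariate, 4 keratin-free and 0 keratin-bearing. MYC+Ex3 against Ex3 livers (2) gave 1 with no filter, where 524 of 20263 genes were called lower, 3 rescaled, 6 keratin-free and 0 keratin-bearing. MYC tumours against 4-OHT livers (1) gave 5 rescaled and 4 with only the groups compared. MYC+Ex3 tumours against 4-OHT livers (6) gave 7 rescaled. MYC+Ex3 against MYC tumours (5) gave 3 with no filter, 3 with the sex covariate and 3 with only the groups compared. With no filter 219 of 18785 genes were called lower between the tumour kinds. For the other changed counts the shares over all genes stand in the results above. Leaving out 1 library gave 0 to 2, 0 to 4 and 1 to 6 for MYC against WT, MYC+Ex3 against Ex3 and MYC tumours against 4-OHT livers, 3 to 5 between tumour kinds and 0 to 2 for the difference of Ex3 effects. No share over all genes is given beside these ranges, which describe stability only. The cause of the changes in count was not tested.

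Values that changed sign lay near 0 as a rule, though not those of MYC+Ex3 against MYC livers in keratin-free libraries. In Ex3 against WT, Sds was -0.10 and Tdo2 -0.046 keratin-free, and Tdo2 -0.017 rescaled. Hgd was 0.06 in MYC+Ex3 against WT and Ftcd 0.22 in MYC+Ex3 against Ex3, both keratin-bearing. In MYC+Ex3 against MYC livers, keratin-free, Tat was -0.53, Hpd -0.20, Hgd -0.19 and Fah -0.26, and rescaled Tdo2 was 0.011. Leaving out 1 library gave -0.057 to 0.18 for Sds and -0.094 to 0.063 for Tdo2 (Ex3 against WT), -0.17 to 0.005 for Hgd (MYC+Ex3 against WT), and -0.09 to 0.20, -0.049 to 0.13 and -0.14 to 0.12 for Tat, Fah and Tdo2 (MYC+Ex3 against MYC livers). For MYC tumours against 4-OHT livers it gave -0.093 to 0.005 (Sds), -0.46 to 0.012 (Hpd), -0.39 to 0.11 (Hgd) and -0.42 to 0.11 (Tdo2), and for MYC+Ex3 tumours -0.10 to 0.076 (Hpd). Between tumour kinds it gave -0.49 to 0.072 (Tat), -0.039 to 0.43 (Hpd), -0.20 to 0.31 (Hgd) and -0.17 to 0.16 (Fah), and for the difference of Ex3 effects -0.23 to 0.24 (Hpd), -0.36 to 0.14 (Hgd) and -0.25 to 0.086 (Fah). By Xist and Ddx3y, males were 4 of 7 among 4-OHT livers, 3 of 3 among MYC tumours and 2 of 3 among MYC+Ex3 tumours, and 2 (WT), 3 (Ex3), 3 (MYC) and 4 (MYC+Ex3) of 5 at day 4.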
